A study of Canis lupus familiaris with 23 samples.

Results

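The genes that differed most among canine oral squamous cell carcinomas (COSCC) were 193 of the 30951 Ensembl dog identifiers in the count table. They were chosen by the SD of log2 CPM over the 11 carcinomas, where CPM is the read count scaled to a common library size. Of 9773 genes with a mean of at least 10 CPM in COSCC, more than 3 counts in some gingiva library and a rank outside the 100 most abundant gingiva genes, the 200 with the largest SD were taken. Of these, 7 were dropped because groups did not overlap in CPM, 1 between the tumor types and 6 between all tumors and gingiva. The spread in COSCC therefore chose the genes, and it is given only as a description. At the limit, the last gene inside had an SD of 2.386 and the first outside an SD of 2.382, so the limit marks no break. The next values were 2.392 inside and 2.380 outside.

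The study measured RNA in 11 COSCC, 5 canine acanthomatous ameloblastomas (CAA) and 7 samples of healthy gingiva, all from dogs, by bulk RNA sequencing. COSCC came from the maxilla in 7 samples and the mandible in 4, CAA from the maxilla in 3 and the mandible in 2, and gingiva from the maxilla in 1 with the jaw undetermined in 6. Each sample is also marked FS or MC, letters that the labels leave unexplained: 6 COSCC, 2 CAA and 4 gingiva samples were FS and the remaining 5, 3 and 3 were MC. The dogs were of several breeds and mixed breed. Age, tumor grade and treatment before sampling are not given in the sources used here. No statement that samples of a group came from separate dogs is given either, so p-values measure the spread between these samples.

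Oral squamous cell carcinoma arises from the stratified epithelium of the mouth, and its cells keep squamous differentiation to a degree that varies from tumor to tumor. CAA is a locally invasive tumor of odontogenic epithelium. Healthy gingiva is a stratified epithelium over fibrous tissue. A piece of tumor also holds stroma, vessels and immune cells, and in the jaw it can include muscle, bone or salivary tissue. In bulk samples, fewer cells of a type and less RNA per cell cannot be told apart. The table names genes by Ensembl identifier only, and 0 of them matched the RefSeq gene table used for names, so genes are described by their values. For the same reason the labelled tissues were not checked against marker genes.

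Total counts ran from 15350751 to 16813220 in COSCC, from 15158841 to 16007894 in CAA and from 15120326 to 15978392 in gingiva, so depth was nearly even. Genes with at least 1 count numbered 17831 to 20823 in COSCC, 18932 to 20249 in CAA and 18188 to 19189 in gingiva. None of the 86 pairs of libraries within a group held identical counts, and the least distant pair differed by a mean chi-square of 49.7 per gene, far above counting noise.

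The members spanned wide ranges among the carcinomas. The range from the lowest to the highest COSCC library was 454-fold at the median of the 193 genes, from 78.6-fold to 16183-fold, on the scale of log2 CPM with a prior count of 2. Mean levels in COSCC ran from 10.3 to 4399 CPM with a median of 25.2 CPM. The lowest library held a median of 0.144 CPM and the highest a median of 175.3 CPM, and 42 members had no count at all in at least 1 carcinoma. A count of 3 equals 0.164 CPM in a CAA library of median size. Low ends near or under that level are therefore known only to within a few counts, which is counting error alone. The members together took 1.88% ± 0.463 of a library's counts over the 11 carcinomas, 0.915% ± 0.182 over the 5 ameloblastomas and 0.748% ± 0.158 over the 7 gingiva libraries (mean ± SD).

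ENSCAFG00000003369 had the largest SD, 4.40, and was singled out after its values were seen. In COSCC it stood at 18.4, 156, 465, 1.58, 29.4, 5683, 0.503, 7.19, 0.276, 52.9 and 0.513 CPM in replicates 1 to 11. In CAA its levels were 31.8, 94.1, 27.3, 144.3 and 649.3 CPM, and in gingiva they ran from 0.295 to 5.49 CPM with a median of 1.72 CPM. Every ameloblastoma was above every gingiva library, whereas the carcinomas reached from the level of the lowest gingiva library to far above the highest ameloblastoma. The lowest carcinoma and the lowest gingiva library both held 4 counts. Replicate 6 alone held 88.6% of the gene's summed COSCC CPM. COSCC was higher than gingiva by 7.67 ± 2.03 on the log2 scale (standard error, adjusted p = 0.00716 by edgeR). That call was lost with limma voom (limma voom adjusted p = 0.222). CAA was higher than gingiva by 6.05 ± 1.96 on the log2 scale (standard error, adjusted p = 0.0279 by edgeR), a call lost without CAA replicate 5 (edgeR adjusted p = 0.0931) or gingiva replicate 4 (edgeR adjusted p = 0.0511).

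Such dependence on 1 tumor was common. In 93 of the 193 genes the highest library held more than 50% of the summed COSCC CPM, and the median share was 49.3%. Without its highest library, 72 genes would have had an SD under the limit for membership, and without its lowest library 62 would. The limit was kept as it stood over all carcinomas, and the genes were not ranked anew. A gap of at least 8-fold between neighbouring COSCC values, a step of 3 on the log2 scale, was found in 65 genes. In 25 of them the gap set 1 high library apart, in 8 it set 1 low library apart, and in 32 it fell between 2 groups of carcinomas of 2 or more.

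The same genes were also variable in tissues that played no part in their choice by SD. Their median SD was 1.32 in gingiva and 1.29 in CAA, against 0.384 and 0.342 for the 9773 genes at the level criteria. Of the 193, 127 (65.8%) were among the 5% most variable of those genes in gingiva and 119 (61.7%) in CAA, and only 5 and 3 lay below the median SD of those genes. The 9773 genes were not matched to the members for level in gingiva or CAA, and counting error can raise the SD of low counts. ENSCAFG00000032379, for example, had 0 to 8 counts in gingiva and an SD of 1.08, above the 5% limit of 1.04. The part of counting error in these shares was not tested. The SD was larger in COSCC than in both other groups for 166 members (86.0%). This is partly how they were chosen, and COSCC exceeded gingiva in 76.8% and CAA in 83.1% of the 9773 genes.

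**Figure D1:**
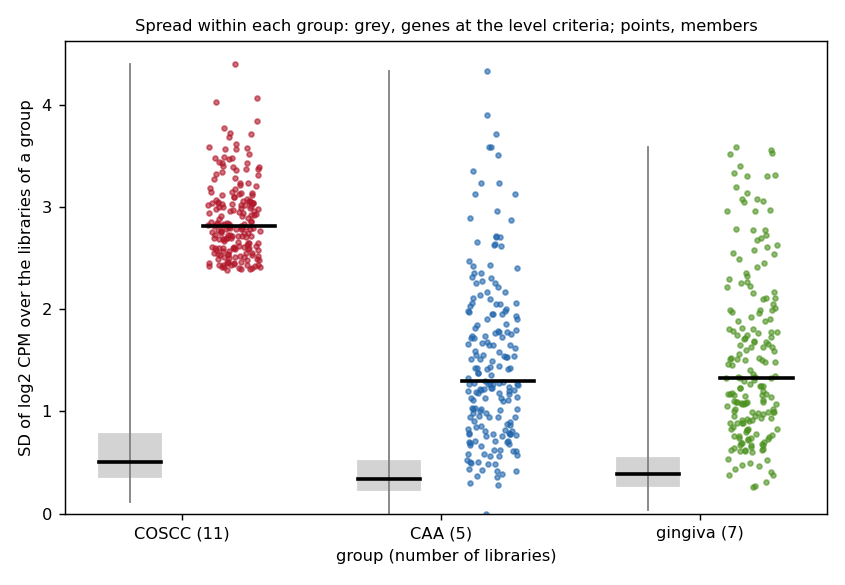
SD of log2 CPM over the libraries of each group (vertical axis) for COSCC, CAA and gingiva (horizontal axis, number of libraries in parentheses). Points are the 193 members with their median as a black line; grey boxes give the quartiles, the line the range and the black bar the median of the 9773 genes at the level criteria. Members lie at medians of 2.81, 1.29 and 1.32, above the medians of 0.506, 0.342 and 0.384 of those genes.

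The members did not vary together as a block. Average-linkage clustering on Pearson correlation over the 11 carcinomas, with the tree divided into 8, put 174 members into 3 patterns of at least 10 genes, here called A, B and C. The remaining 19 fell into 5 small sets, D to H, of 6, 5, 5, 2 and 1 genes. Values are given as z scores, the distance of a log2 CPM value from the gene's COSCC mean in units of its COSCC SD, averaged over the genes of a pattern. The patterns were drawn on these values and are a description. The assignment depended on the method: with complete linkage 44.2% of member pairs that shared a set stayed together, with Spearman rho 65.8% and with library totals 79.7%.

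**Figure D2:**
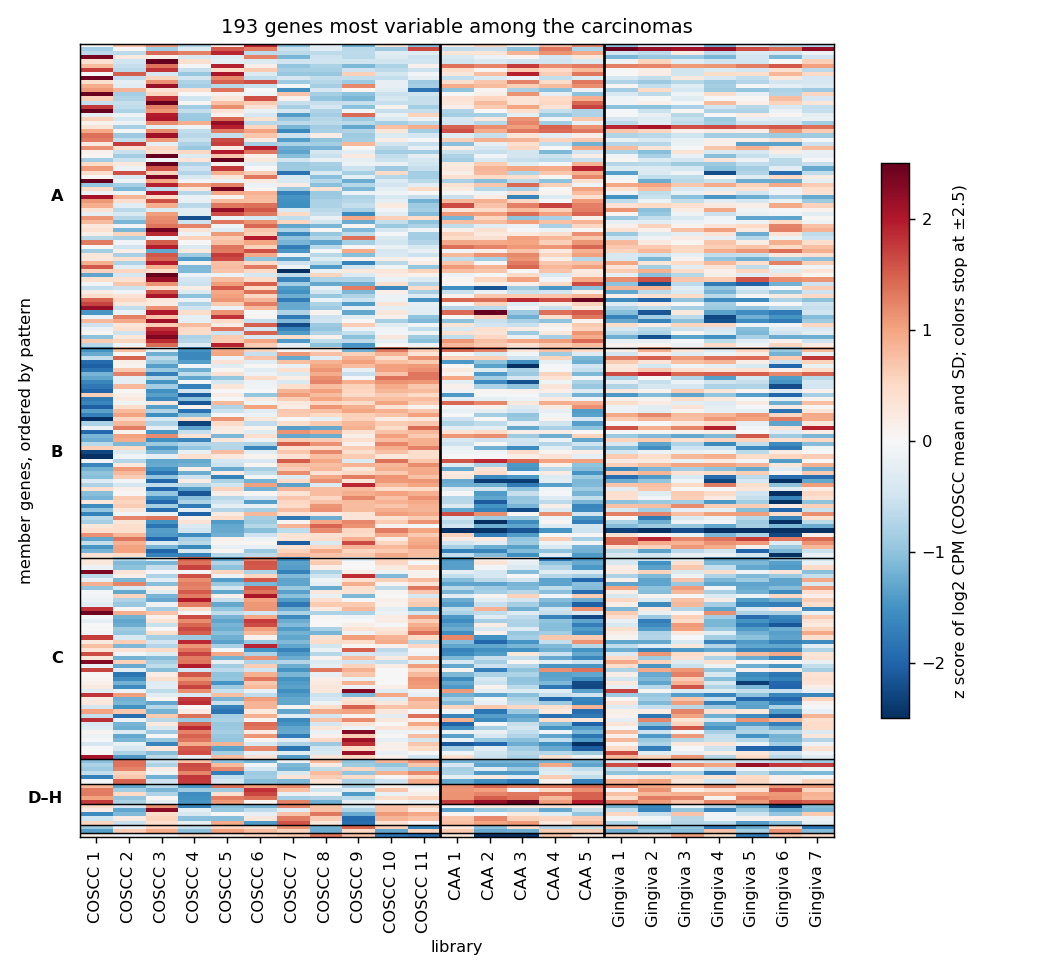
z scores of log2 CPM for the 193 members (rows, ordered by pattern and, within it, by SD) in the 23 libraries (columns, groups separated by thick lines), scaled by each gene's COSCC mean and SD. Red is above and blue below the COSCC mean, with colors ending at ±2.5; pattern A is highest in COSCC 3 and 5, pattern B in COSCC 8 to 11, pattern C in COSCC 4.

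Pattern A comprised 74 genes with a median of 22.0 CPM in COSCC, 12.9 CPM in CAA and 2.58 CPM in gingiva. Its mean z score was 0.49, -0.12, 1.21, -0.29, 0.92, 0.55, -0.95, -0.63, -0.47, -0.26 and -0.45 in COSCC replicates 1 to 11. Replicates 3, 5, 6 and 1 were thus the high carcinomas and replicate 7 the lowest. Summed over the 74 genes, the level ran from 135.6 CPM in replicate 7 to 10802 CPM in replicate 3, a ratio of 79.7, against a ratio of 2.78 between the gingiva libraries. CAA scored 0.13 to 0.63 and gingiva -0.31 to -0.08, groups that did not overlap. In 4 carcinomas the score was above every gingiva library and in 4 it was below every gingiva library.

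Within pattern A the peaks were spread over few tumors. The highest carcinoma was replicate 3 for 30 genes, replicate 5 for 21, replicate 1 for 11 and replicate 6 for 9, and replicate 7 was the lowest for 31. For 45 of the 74 genes the SD would have fallen under the limit without the highest library. All 5 ameloblastomas were above every gingiva library in 19 of these genes and below every gingiva library in 1, against 8.94% and 6.59% of all genes tested. Genes with all tumors apart from gingiva had been removed by the rule, so nothing is read from that distance.

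ENSCAFG00000029153 was the gene closest to the mean of pattern A. Its COSCC levels were 413.9, 48.1, 710.1, 14.1, 853.3, 487.1, 1.51, 8.99, 10.3, 105.1 and 8.15 CPM in replicates 1 to 11. CAA held 1778, 411.2, 926.9, 1168 and 929.5 CPM, and gingiva 67.7 to 535.2 CPM with a median of 175.5 CPM. Replicates 1, 3, 5 and 6 lay within or above the range of gingiva and within reach of CAA, while 6 carcinomas were below every gingiva library.

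Pattern B, with 51 genes, was low in a different set of tumors. The genes were more abundant, with a median of 59.7 CPM in COSCC, 17.9 CPM in CAA and 30.0 CPM in gingiva. The z score was -1.05, 0.44, -1.09, -0.93, -0.20, -0.27, 0.26, 0.61, 0.61, 0.79 and 0.83 in COSCC replicates 1 to 11. Replicates 1, 3 and 4 stood apart at the low end, with scores below every gingiva library. Replicate 4, at -0.93, was barely below gingiva replicate 6, at -0.92. By median log2 CPM, carcinoma replicates 3 and 4, at 1.70 and 1.88, were above that gingiva library, at 1.57. Replicates 1, 3 and 4 were the lowest carcinoma for 14, 15 and 14 of the 51 genes. Replicates 2 and 7 to 11 were above every gingiva library. The sum over the genes ran from 650.1 CPM in replicate 3 to 26206 CPM in replicate 10, a ratio of 40.3, against 3.29 in gingiva.

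The ameloblastomas scored -0.86 to -0.11 in pattern B, above carcinoma replicates 1, 3 and 4 and below the 6 upper ones. Gingiva scored -0.11 to 0.10 in 6 libraries and -0.92 in replicate 6. All 5 ameloblastomas were below every gingiva library in 11 of the 51 genes and above in 1, against the same 6.59% and 8.94%. The removal by the rule limits these counts too. For 6 genes of this pattern the SD would have fallen under the limit without the highest library. The count without the lowest library is not given by pattern.

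ENSCAFG00000012455 was the gene closest to the mean of pattern B. It stood at 0.338, 28.8, 0.634, 0.225, 3.66, 3.61, 9.98, 12.5, 21.7, 20.8 and 30.5 CPM in COSCC replicates 1 to 11, and at 1.20, 0.562, 0.432, 2.67 and 0.613 CPM in CAA. Gingiva ran from 1.05 to 32.8 CPM with a median of 13.8 CPM. The upper carcinomas matched the gingiva range, and replicates 1, 3 and 4 were as low as the ameloblastomas. CAA was lower than gingiva by a log2 fold change of -3.85 ± 1.10 (standard error, adjusted p = 0.0143 by edgeR). CAA was also lower than COSCC, at -3.46 ± 1.04 (standard error, adjusted p = 0.0419 by edgeR), a call lost in 14 of 24 alternatives.

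Pattern C held 49 genes with a median of 24.7 CPM in COSCC, 1.53 CPM in CAA and 6.11 CPM in gingiva. Its z score was 0.39, -0.63, -0.43, 1.12, -0.77, 0.60, -1.24, -0.05, 0.51, 0.07 and 0.42 in COSCC replicates 1 to 11. Replicate 4 was the highest carcinoma for 22 of the genes, replicate 1 for 10, replicates 6 and 9 for 8 each, and replicate 7 was the lowest for 29. The sum over the genes ran from 53.4 CPM in replicate 7 to 13339 CPM in replicate 4, a ratio of 249.7. By this sum, pattern C was the only one of the 3 with a wide range in gingiva too, from 176.7 to 3820 CPM, a ratio of 21.6. By median log2 CPM, pattern B also ranged widely in gingiva. It was at 1.57 in replicate 6 and from 4.47 to 5.35 in the other libraries. All CAA libraries scored low, -1.10 to -0.63, and overlapped the lower gingiva libraries.

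ENSCAFG00000024720, the gene closest to the mean of pattern C, had 6.43, 0.183, 0.244, 50.4, 0.174, 37.1, 0.144, 4.30, 16.9, 5.35 and 20.3 CPM in COSCC replicates 1 to 11. Its CAA levels were 0.219, 0.920, 0.917, 0.130 and 0 CPM. Gingiva divided into 3 libraries from 7.55 to 9.15 CPM and 4 from 0 to 0.591 CPM. The carcinomas divided in the same way, with 7 at 4.30 CPM or more and 4 at 0.244 CPM or less.

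**Figure D3:**
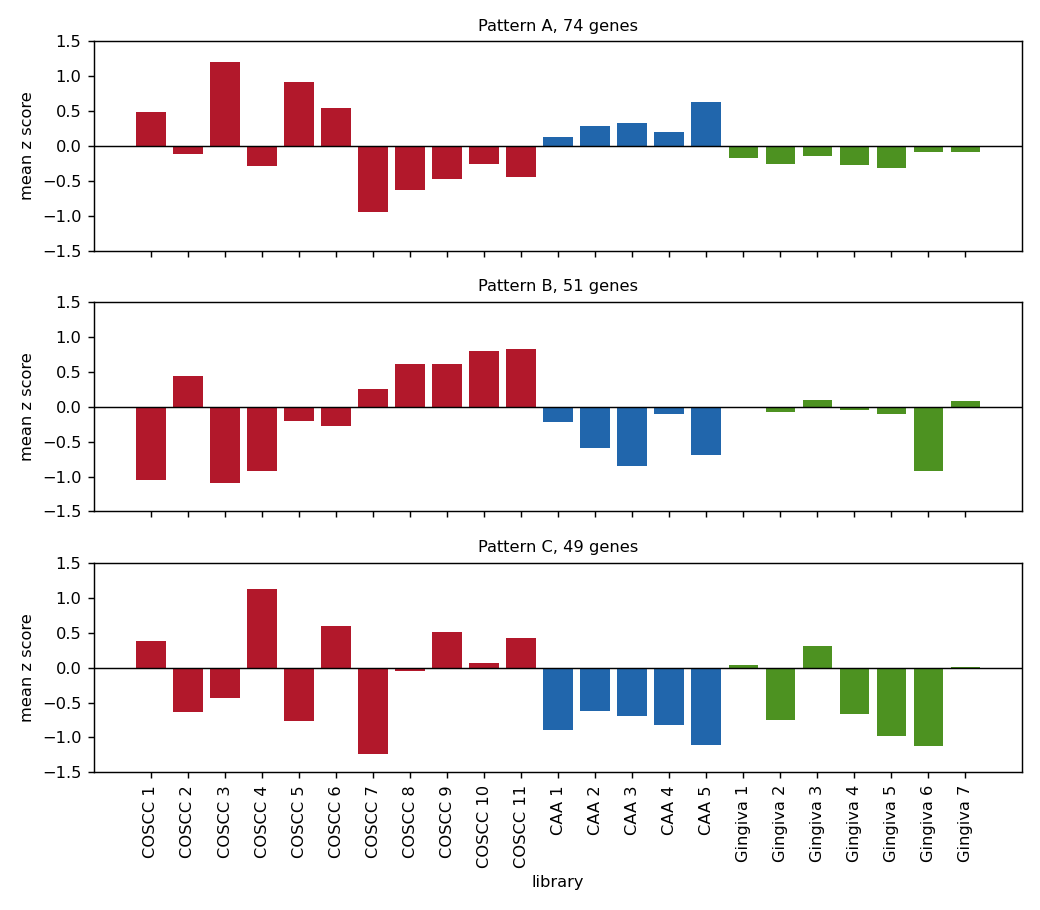
Mean z score (vertical axis) of the genes of patterns A, B and C in each library (horizontal axis), red for COSCC, blue for CAA and green for gingiva. Zero is the COSCC mean; pattern A reaches 1.21 in COSCC 3, pattern B 0.83 in COSCC 11 and pattern C 1.12 in COSCC 4, while COSCC 7 is lowest in A and C.

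Covariation in gingiva, which the clustering did not use, differed between the patterns. Over the 7 gingiva libraries the median Pearson r between gene pairs was 0.50 within pattern B and 0.54 within pattern C, against 0.61 and 0.47 over the 11 carcinomas. Within pattern A it was 0.06 in gingiva and 0.50 in COSCC. Between patterns B and C the median was 0.34 in gingiva and -0.11 in COSCC, and between A and B it was -0.12 and -0.40. Pairs share libraries and scaling, so these medians are descriptions. In gingiva pattern B was set apart chiefly by replicate 6, at a z score of -0.92 with the next lowest at -0.11. The medians that involve pattern B in gingiva can therefore rest on that library. Pattern A had a median of 2.58 CPM in gingiva, where counting error can lower r. Neither effect was tested.

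COSCC replicate 7 stood apart as the lowest carcinoma for 68 of the 193 members. It had the fewest genes with a count of all carcinomas, 17831, and detected 171 members where the other carcinomas detected 182 to 193. Replicate 3, the highest carcinoma for 33 members, had the most genes with a count, 20823, and the largest TMM factor, 1.30. The part of library composition in these extremes was not tested. When each carcinoma was left out in turn and the rule applied anew, 147 to 182 of the 193 genes were chosen again, the fewest without replicate 3.

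Each carcinoma was next set against the range of the gingiva libraries. A wide spread in COSCC, which chose the members, reaches beyond that range on both sides more easily, so the counts describe the choice and are no separate result. In 102 of 193 genes (52.8%) some carcinomas were above every gingiva library and others below every gingiva library. That held for 37.2% of the 9773 genes at the level criteria. A further 74 members reached only above (38.3%, against 31.3% of those genes) and 17 only below (8.81%, against 28.7%). No member kept all carcinomas within the gingiva range, as 2.74% of those genes did. For 124 members (64.2%, against 37.5%) the COSCC range contained the whole gingiva range, and for 133 (68.9%, against 54.3%) it contained the whole CAA range.

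The count differed between tumors. Replicate 6 had 78 members above every gingiva library and 25 below. Replicate 4 had 74 above and 58 below, the largest share outside the gingiva range at 68.4%. Replicate 7 had 37 above and 68 below, the reverse of the other carcinomas. The share of members outside the gingiva range was 54.7% ± 5.45 in COSCC (SD, n = 11) and 49.9% ± 7.80 in CAA (SD, n = 5), against 47.0% ± 7.08 and 45.7% ± 6.56 for the genes at the level criteria. In replicates 6 and 8 the share was smaller for the members than for those genes.

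**Figure D4:**
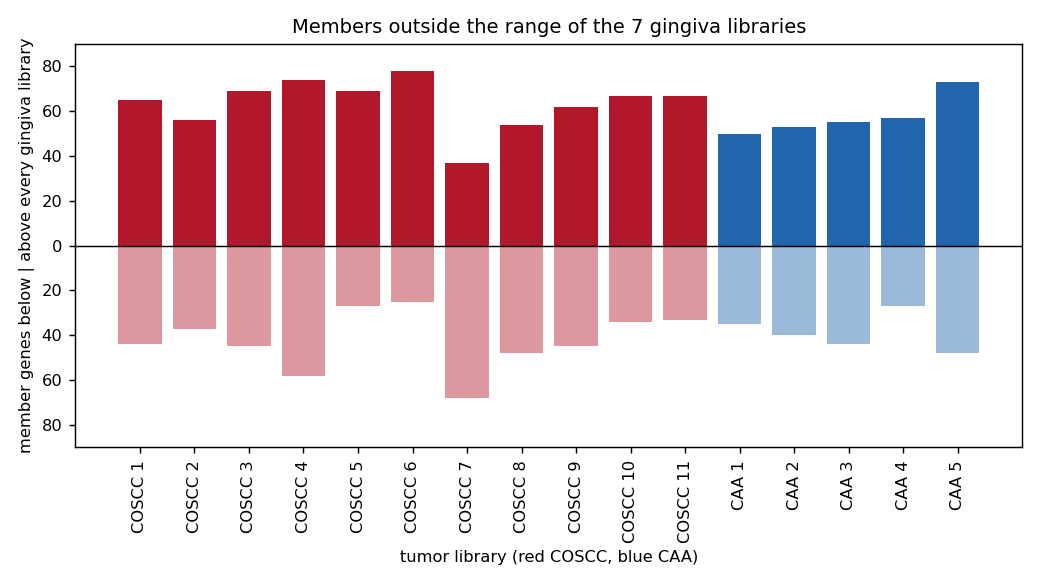
Number of members above (upward bars) and below (paler downward bars) all 7 gingiva libraries, for each tumor library on the horizontal axis, red for COSCC and blue for CAA. COSCC 7 is the only tumor with more members below (68) than above (37).

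The group means were compared next, to see where these genes stood between carcinoma, ameloblastoma and gingiva. All 193 were tested in an edgeR quasi-likelihood model of all 23 libraries, and an adjusted p under 0.05 was counted as a change. COSCC differed from gingiva in 74 members (38.3%), 70 of them higher (36.3%) and 4 lower (2.07%). Among all 15716 genes tested, 33.7% changed, 20.1% upward and 13.5% downward. The rule asked for a level in COSCC and removed genes without overlap, so nothing is read from these shares. The median log2 fold change was 2.03 over the members and 0.14 over all genes.

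The balance of directions depended on the tool. With limma voom and sample quality weights 52 members changed, 29 higher and 23 lower, where 42.6% of all genes changed, 21.5% upward and 21.1% downward. The median was then 0.86 over the members and 0.03 over all genes. This alternative changes the model and adds weights at once, and which of these moved the balance was not tested. Of the 74 genes called by edgeR, 32 were also called by limma voom.

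ENSCAFG00000032379 and ENSCAFG00000009569 had the largest rises in COSCC. ENSCAFG00000032379 was at 807.7 CPM in COSCC replicate 1 and 47.1 CPM in replicate 6, but at 0 to 3.91 CPM in the other 9 carcinomas. Gingiva held 0 to 0.589 CPM and CAA 0.651 to 4.63 CPM. Its log2 fold change of 8.73 ± 2.19 (standard error, adjusted p = 0.00515 by edgeR) fell to 4.95 without replicate 1 (edgeR adjusted p = 0.0100). It was 3.24 with limma voom. Without replicate 6 it was 8.79. The call was lost in a model with the replicate number as a block (edgeR adjusted p = 0.0630).

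ENSCAFG00000009569, by contrast, was above gingiva in every carcinoma. Its COSCC levels were 930.6, 985.9, 44.1, 196.8, 54.2, 75.1, 157.0, 3441, 1111, 4259 and 2488 CPM in replicates 1 to 11. Replicates 8, 10 and 11 were the highest and replicates 3, 5 and 6 the lowest. Gingiva had at most 10.7 CPM and CAA 5.58 to 192.5 CPM, overlapping both other groups. The log2 fold change against gingiva was 8.25 ± 1.36 (standard error, adjusted p = 0.000216 by edgeR), and it passed the threshold in all 26 alternatives.

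ENSCAFG00000013000 and ENSCAFG00000007025 had the largest falls. ENSCAFG00000013000 ran from 102.5 to 1674 CPM in gingiva with a median of 815.3 CPM. In COSCC it was at 149.1, 78.2 and 198.7 CPM in replicates 5, 6 and 11 and at 0.127 to 2.81 CPM in the other 8. The log2 fold change was -4.22 ± 1.45 (standard error, adjusted p = 0.0293 by edgeR), and the call was lost without gingiva replicate 1 (edgeR adjusted p = 0.0536). It was also lost with the replicate number as a block. ENSCAFG00000007025 ran from 23.3 to 348.3 CPM in gingiva, and in COSCC it reached 96.7 CPM in replicate 4 and 50.2 CPM in replicate 2, with a median of 1.87 CPM. Its log2 fold change of -3.21 ± 1.23 (standard error, adjusted p = 0.0462 by edgeR) passed in 9 of 26 alternatives. In CAA it was at 21.0 CPM in replicate 4 and at most 0.820 CPM in the other 4.

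**Figure D5:**
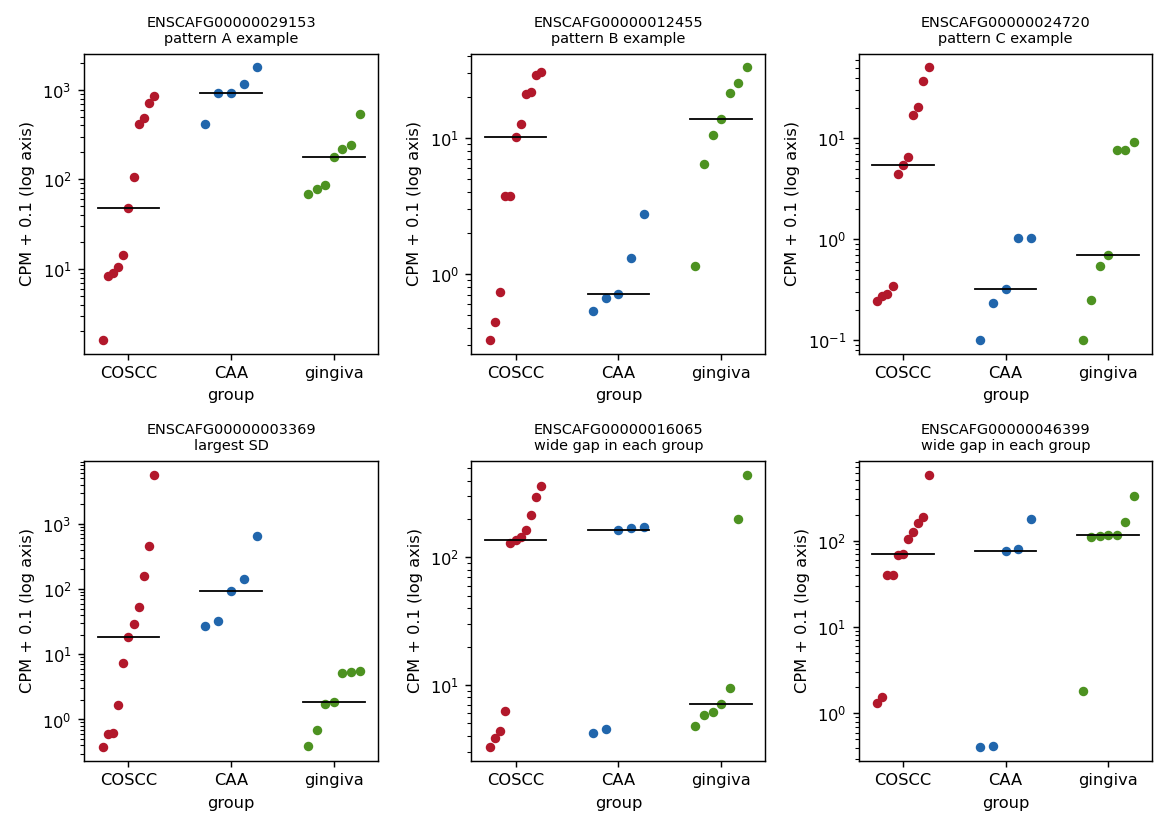
CPM + 0.1 on a log axis for 6 members in COSCC (11 points), CAA (5) and gingiva (7), each point a library and each line the group median. The upper row shows the genes closest to the mean of patterns A, B and C; the lower row shows ENSCAFG00000003369, with COSCC values from 0.276 to 5683 CPM, and 2 genes that fall into a high and a low set in every group.

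The contrast of CAA with gingiva came from the same model, and the SD over COSCC entered it only through the shared spread. The rule had also removed 6 genes in which all tumors and gingiva did not overlap. CAA and gingiva differed in 35 members (18.1%), 18 higher (9.33%) and 17 lower (8.81%) in CAA. Of all genes 24.6% changed, 13.8% upward and 10.8% downward. The members' fold changes were nevertheless wide: the median absolute log2 fold change was 2.15 against 0.55 over all genes, with a median SE of 1.30 against 0.36. The SE comes from a spread shared by all groups and so contains the COSCC spread that chose the members. In a fit of CAA and gingiva alone the median SE was 0.78 over the 168 members tested, against 0.27 over all genes. The SE was thus smaller for all genes too, and the 2 fits differ in the members tested. There 81 of 168 members tested (48.2%) changed, 46 higher (27.4%) and 35 lower (20.8%), against 35.0% of all genes tested, 18.2% upward and 16.8% downward. Without CAA replicate 5 the count in the model of all groups fell from 35 to 13. The share of all genes called in that fit is not given here, so the fall is not read as particular to the members.

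All 5 ameloblastomas were above every gingiva library in 25 members (13.0%) and below every gingiva library in 15 (7.77%). Among all genes tested these shares were 8.94% and 6.59%. The rule had removed 6 genes in which all tumors lay apart from gingiva, each of which would have counted here. Nothing is therefore read from the distance between these shares. In 35 members (18.1%) every ameloblastoma lay within the gingiva range. That share was not computed over all genes, and nothing is read from it. By pattern, in the model of all groups, 14 of the 74 genes of pattern A rose in CAA and 1 fell. Of the 51 in pattern B, 2 rose and 12 fell, and of the 49 in pattern C, 1 rose and 3 fell. Among all genes tested 13.8% rose and 10.8% fell, and nothing is read from the counts by pattern.

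ENSCAFG00000001298 and ENSCAFG00000005766 had the largest rises in CAA. ENSCAFG00000001298 was at 47.0, 43.3, 97.1, 65.4 and 337.7 CPM in CAA and at no more than 0.924 CPM in gingiva, which gave a log2 fold change of 8.31 ± 1.24 (standard error, adjusted p = 0.000182 by edgeR). In COSCC it ran from 0.0718 to 48.4 CPM with a median of 2.97 CPM, so only replicate 1 reached the level of the ameloblastomas. ENSCAFG00000005766 was at 2.90, 5.88, 22.6, 3.26 and 27.4 CPM in CAA and at most 0.283 CPM, or 4 counts, in gingiva. Its log2 fold change was 6.70 ± 1.80 (standard error, adjusted p = 0.0103 by edgeR). COSCC reached 54.3 CPM in replicate 6, 42.2 CPM in replicate 5 and 17.8 CPM in replicate 3, while the median carcinoma had 0.550 CPM. Both genes belong to pattern A.

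ENSCAFG00000024769 and ENSCAFG00000041788, both of pattern B, had the largest falls in CAA. ENSCAFG00000024769 was at 0 to 0.279 CPM in CAA and at 0.370 to 30.8 CPM in gingiva, which gave a log2 fold change of -6.15 ± 1.60 (standard error, adjusted p = 0.00870 by edgeR). The carcinomas bridged these levels, from 0.144 CPM in replicate 7 to 88.4 CPM in replicate 9. ENSCAFG00000041788 was at 0.378 to 3.78 CPM in CAA and at 5.15 to 252.2 CPM in gingiva, which gave a log2 fold change of -5.81 ± 1.48 (standard error, adjusted p = 0.00754 by edgeR). COSCC ran from 0.287 to 89.8 CPM with a median of 7.09 CPM. All 4 of these CAA calls held in each of their 20 alternatives.

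CAA and COSCC were then compared directly. They differed in 22 members (11.4%), 2 higher (1.04%) and 20 lower (10.4%) in CAA, where 8.72% of all genes differed, 4.09% upward and 4.63% downward. Genes without overlap between the tumor types had been removed by the rule. The median log2 difference was -2.33 over the members and -0.07 over all genes. By pattern, CAA was lower in 3 of the 74 genes of A, 7 of the 51 of B and 8 of the 49 of C. It was higher in 1 gene of A. Of the small sets, D and F each had 1 lower gene and E had 1 higher gene. The count rested on single libraries: it was 3 without CAA replicate 2, 3 or 5, 8 without CAA replicate 1, 41 without COSCC replicate 5 and 49 without COSCC replicate 3. Voom called 62 members, 36 higher and 26 lower in CAA, where it called 37.6% of all genes, 20.3% upward and 17.3% downward.

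ENSCAFG00000001298 and ENSCAFG00000009506 were the 2 members higher in CAA. The log2 difference of ENSCAFG00000001298 was 3.45 ± 0.83 (standard error, adjusted p = 0.0177 by edgeR). ENSCAFG00000009506 was at 289.6, 606.6, 1274, 88.9 and 421.8 CPM in CAA and at 285.4, 3.79, 10.2, 1.18, 90.8, 16.2, 123.7, 1.88, 9.86, 14.1 and 11.4 CPM in COSCC replicates 1 to 11. Replicates 1, 5 and 7 overlapped the ameloblastomas and the other 8 were below them. Gingiva held 46.7 to 226.2 CPM, overlapping both. Its log2 difference was 3.37 ± 0.88 (standard error, adjusted p = 0.0246 by edgeR). Both calls were lost in a fit of only the 2 groups (edgeR adjusted p = 0.0509 and 0.0686). The call for ENSCAFG00000001298 was also lost without CAA replicate 5, and that for ENSCAFG00000009506 without CAA replicate 2, 3 or 5.

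ENSCAFG00000002900 and ENSCAFG00000016907 had the largest differences in the other direction. ENSCAFG00000002900 had no count in any ameloblastoma, 0.141 to 1.39 CPM in gingiva, and 106.3, 59.0, 28.8, 25.9 and 21.5 CPM in COSCC replicates 2, 11, 10, 8 and 4, with 0 to 1.87 CPM in the other 6. The COSCC mean was at least 135-fold higher than the level of 3 counts in a CAA library of median size (edgeR adjusted p = 0.0189), and at least 84.0-fold higher without COSCC replicate 2. ENSCAFG00000016907 had 3 counts in all ameloblastomas together and 2441 in all carcinomas, a pooled ratio of 409.5 with an exact 95% interval of 140.0 to 1987 for counting error only (edgeR adjusted p = 0.0191). Of those 3 counts 2 were in CAA replicate 5, and without it the ratio was 982.7, with an interval of 176.2 to 38828. It was at 50.9, 44.4, 20.9 and 19.8 CPM in COSCC replicates 4, 2, 9 and 1 and at no more than 5.58 CPM elsewhere. Both calls were lost without CAA replicate 2, 3 or 5, and that for ENSCAFG00000002900 also in a fit of only the 2 groups (edgeR adjusted p = 0.0673).

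The jaw and the code were examined as labelled divisions within COSCC. The members were chosen for their spread over these same 11 libraries, which favours a difference along any division of them, so the shares below are descriptions and nothing is read from their distance to all genes. Mandibular and maxillary carcinomas, 4 against 7, differed in 0 of 187 members tested (0% of all 14958 genes, edgeR), the smallest adjusted p among members being 0.224. At an unadjusted p under 0.05 there were 49 members (26.2%), 32 higher (17.1%) and 17 lower (9.09%) in the mandible, against 13.1% of all genes, 6.29% upward and 6.81% downward. DESeq2 called 24 of the 142 members to which it gave an adjusted p, 14 higher and 10 lower, where it called 2.71% of all genes, 1.05% upward and 1.66% downward. Voom called 0 members.

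The patterns were also drawn on these libraries, so that genes of a pattern share their direction by construction. In pattern A 27 of 68 genes tested had an unadjusted p under 0.05, all higher in the mandible, and the median log2 difference was 2.34. Mandibular replicates 3 and 5 were the highest carcinomas for 30 and 21 of the 74 genes of that pattern. In pattern B 13 of 51 did, 1 higher and 12 lower, with a median of -1.92, and in pattern C 4 of 49, all lower, with a median of -0.02. The mandibular replicates were 2, 3, 4 and 5, whose pattern A scores were -0.12, 1.21, -0.29 and 0.92. The jaw therefore did not separate the scores, since maxillary replicates 1 and 6, at 0.49 and 0.55, were above mandibular replicates 2 and 4.

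MC and FS carcinomas, 5 against 6, differed in 0 of 179 members tested (0% of all 14527 genes, edgeR), with 33 (18.4%) at an unadjusted p under 0.05 against 9.29% of all genes. Of the 33, 26 were higher in MC (14.5%, against 4.42% of all genes) and 7 lower (3.91%, against 4.87%). DESeq2 called 5 of 139 members, 4 higher and 1 lower, where it called 0.380% of all genes, 0.179% upward and 0.201% downward. Voom called 0 members. All 4 mandibular carcinomas carried MC and 6 of the 7 maxillary ones FS, so the 2 labels largely coincide.

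A pair of members switched between 2 levels in every group. The largest gap over all 23 libraries divided each of the 3 groups in 14 members, and in 2 of these it was at least 8-fold. Both were singled out after their values were seen. ENSCAFG00000016065 was at 3.16 to 6.14 CPM in 4 carcinomas and 129.0 to 359.4 CPM in 7. It was at 4.09 and 4.43 CPM in 2 ameloblastomas and 163.9 to 173.8 CPM in 3, and at 4.64 to 9.43 CPM in 5 gingiva libraries and 198.5 and 444.1 CPM in 2. No library held a level between 9.43 and 129.0 CPM.

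ENSCAFG00000046399 was at 1.22 and 1.46 CPM in 2 carcinomas, replicates 11 and 10, and at 39.3 to 577.5 CPM in the other 9. In CAA it was at 0.307 and 0.324 CPM in replicates 2 and 3 and at 75.5 to 176.4 CPM in the other 3. In gingiva it was at 1.69 CPM in replicate 5 and at 111.1 to 331.8 CPM in the other 6. Its SD was larger in CAA, 4.33, than in COSCC, 2.72, and it formed a set of its own in the clustering. For neither gene did a group contrast pass the threshold (edgeR, smallest adjusted p = 0.565).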

How the data were processed

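RNA was sequenced from 11 COSCC, 5 CAA and 7 gingiva samples. Libraries were strand-specific and depleted of ribosomal RNA, per the labels' protocols. The authors deposited 1 table of raw read counts per Ensembl gene, with a column per sample. Alignment used STAR and the build was canFam3, per the submitters' processing notes, and versions, the read counter and use of strand are not given in the sources used here. All sample columns matched a label. Samples were grouped by the tumor or tissue named in the labels.

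From these counts, log2 CPM was computed with TMM scaling and a prior count of 2. Group contrasts used edgeR 4.0.16 (quasi-likelihood, TMM, filterByExpr, R 4.3.3) over all genes kept, with Benjamini-Hochberg adjustment. The procedure was tested on simulated data. The jaw and code contrasts used the carcinomas alone. Alternatives were median-of-ratios or total scaling, voom from limma 3.58.1 with quality weights per sample, DESeq2 1.42.0, no filter on low counts, fewer groups, a replicate block, the FS or MC code as a covariate, and leaving out each library.

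The genes, lists and tests were chosen with earlier results of these data known. The identifiers described are the 2 with the largest absolute fold change per direction among those called in each group contrast, the 1 closest to the mean of each pattern, and 3 chosen after their values were seen. Gene lists and cell type markers written by symbol could not be applied. Membership was read as the 200 genes of largest SD, with genes whose groups did not overlap removed afterwards.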

Additional observations from a re-analysis of the deposited data

Results flagged for a closer look

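Sets of values in CAA and in gingiva were examined for single distant samples, and values in COSCC were not. In 8 of the 43 sets examined, 1 sample lay far from the others of its group by Dixon's test. A rate of 1 in 20, or 2.15 sets, holds for independent sets of normally distributed values. Most sets here were CPM of the identifiers described, which were mostly picked for large fold changes, SD or gaps. The sets also shared libraries. The 2.15 is therefore no chance rate for them, and the 8 are not read as an excess. In 5 of the 8 the sample was an ameloblastoma. ENSCAFG00000009569 stood at 192.5 CPM in CAA replicate 5, with the next ameloblastoma at 38.0 CPM. The same library was highest for ENSCAFG00000001298, at 337.7 CPM against 97.1 CPM, and for ENSCAFG00000003369, at 649.3 CPM against 144.3 CPM. CAA replicate 4 held 86.5 CPM of ENSCAFG00000013000 where the next held 0.460 CPM, and 21.0 CPM of ENSCAFG00000007025 where the next held 0.820 CPM.

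The other 3 were in gingiva. Pattern B had a mean z score of -0.92 in gingiva replicate 6, with the next at -0.11. The same library held 535.2 CPM of ENSCAFG00000029153, with the next at 240.9 CPM. ENSCAFG00000016907 stood at 0.919 CPM in gingiva replicate 7, with the next at 0.164 CPM.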

How the results depend on the processing

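Of 558 recomputed fold changes of the identifiers described, 471 kept their direction and their side of the threshold, 87 kept their direction but no longer passed, and 0 reversed. The cause of the changes below was not tested unless stated. Most counts below stand without the share of all genes called under the same setting. They do not tell a change in the members from a change in the call rate over all genes. With DESeq2, which gave 48 members no adjusted p, CAA differed from gingiva in 56 members and from COSCC in 70. By jaw 24 members differed and by code 5, where 2.71% and 0.380% of all genes did. With limma voom the counts were 64 for CAA against gingiva and 62 for CAA against COSCC, the latter beside 37.6% of all genes. Fits of only the groups compared gave 81 and 5. With the FS or MC code as a covariate CAA differed from COSCC in 14 members. Scaling by library totals moved the median over all genes, on the log2 scale, from 0.14 to 0.35 for COSCC against gingiva and from 0.04 to 0.41 for CAA against gingiva. In the latter contrast 26 members were then higher and 17 lower.

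Leaving out 1 library at a time gave 53 to 81 members for COSCC against gingiva, 13 to 35 for CAA against gingiva, 3 to 49 for CAA against COSCC, 0 to 1 by jaw and 0 by code. The 1 member by jaw appeared without COSCC replicate 2. The list shared 147 to 182 genes when the rule was applied without 1 carcinoma, and 119 with the median absolute deviation in place of the SD. With library-total CPM for the level criteria, an alternative chosen after seeing the data, it shared 188. The ratios of ENSCAFG00000002900 and ENSCAFG00000016907 without 1 library were also added after seeing the data. Of gene pairs placed together, complete linkage kept 44.2% and Spearman rho 65.8%.

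Replicate numbers did not pair the samples. Same-numbered deviations correlated at -0.24 to 0.27 over 7 pairs of COSCC and gingiva, and at most at 0.20 in the other contrasts. Over the contrasts 1, 0 and 1 samples correlated best with their own number. With a replicate block 28 members differed between COSCC and gingiva, 35 between CAA and gingiva and 1 between CAA and COSCC. Of the calls of the identifiers described, 12 were lost with the block. Among them were the calls between CAA and COSCC of ENSCAFG00000001298, ENSCAFG00000009506, ENSCAFG00000002900 and ENSCAFG00000016907. Also lost were the calls between COSCC and gingiva of ENSCAFG00000032379, ENSCAFG00000013000, ENSCAFG00000002900 and ENSCAFG00000016907. Counts under about 3 limit what can be said of the lowest values.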

Other observations

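The labels give a breed for the dogs, which no comparison used. The counts below are of samples, which are not stated to come from separate dogs. Both samples labelled Boxer were at the low level for ENSCAFG00000016065 and for ENSCAFG00000046399, the 2 genes with 2 separate levels in every group. Among the 6 Labrador Retriever samples, 3 were low and 3 high for ENSCAFG00000016065, and 2 were low and 4 high for ENSCAFG00000046399. Among the 7 mixed-breed samples, 4 were low and 3 high for the first gene, and 1 was low and 6 high for the second. The low level thus occurred in several breeds, and no test was made.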
